A study of Mus musculus with 6 samples.

Results

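The nuclear genes for subunits of the respiratory chain and ATP synthase were followed in sorted mouse bone marrow progenitors with and without a mutant allele of the splicing factor gene Srsf2. Genes were taken by symbol (Nduf, Sdh, Uqcr with Cyc1, Cox4 to Cox8, and Atp5 names), which gave 82 of the 26027 genes in the count table. They fall into 36 genes of complex I, 4 of complex II, 9 of complex III, 16 of complex IV and 17 of ATP synthase, all annotated as protein coding and spread over 19 chromosomes. Some carry a family name without being a structural subunit. Atp5sl (Dmac2 in the annotation) is an assembly factor of complex I, Cox7a2l helps to join complexes into supercomplexes, and Atp5s is a relative of Atp5sl. Ndufa4 keeps its complex I symbol here although its protein is found in complex IV. Ndufab1, a further subunit of complex I, falls outside the exact symbol pattern and is not counted among the members.

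RNA came from Lin-/cKit+/eYFP+ cells, described as immature multipotent progenitors, sorted from whole bone marrow of C57BL/6 mice after tamoxifen in vivo. Every mouse carried hScl-CreERT, a tamoxifen-inducible Cre under an Scl element, and R26eYFP, a reporter switched on by Cre. The sort thus kept cells recombined at the reporter, and the counts do not show the state of Srsf2 in each of them. There were 3 libraries of Srsf2 P95H/+ (1 mutant allele) and 3 of Srsf2 +/+ (wild type) mice. The mice were 32 weeks old, apart from that of wild-type replicate 1, which was 54 weeks old. Females gave wild-type replicate 1 and P95H/+ replicates 1 and 2, and males gave the rest, so that neither sex nor age is balanced between genotypes. The labels do not say that each library is a different mouse, and p-values measure the spread between these libraries.

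Oxidative phosphorylation passes electrons from NADH (complex I) and succinate (complex II) through ubiquinol to cytochrome c (complex III) and on to oxygen (complex IV). Complexes I, III and IV pump protons across the inner mitochondrial membrane, and ATP synthase uses the gradient. Most subunits are encoded in the nucleus and imported, while a small core is encoded in mitochondrial DNA, which was not analysed here. Haematopoietic stem cells are known for a low reliance on this pathway, which rises as cells enter division and differentiate. The factors NRF1, GABPA (also named NRF2) and YY1 are known to bind promoters of many of these genes.

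One promoter of each complex is shown because it holds letters searched for as an NRF1 or YY1 motif. They run from 250 bases before to 50 bases after a RefSeq gene start on GRCm38.p6 (mm10), 5′ to 3′ on the gene's strand, with the matches in capitals.
Ndufs6: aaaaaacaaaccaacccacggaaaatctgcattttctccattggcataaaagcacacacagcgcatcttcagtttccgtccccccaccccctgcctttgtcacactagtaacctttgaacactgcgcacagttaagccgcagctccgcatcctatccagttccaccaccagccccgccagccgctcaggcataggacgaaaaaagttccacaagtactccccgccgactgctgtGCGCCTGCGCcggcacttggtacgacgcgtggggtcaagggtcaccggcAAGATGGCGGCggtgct
Sdha: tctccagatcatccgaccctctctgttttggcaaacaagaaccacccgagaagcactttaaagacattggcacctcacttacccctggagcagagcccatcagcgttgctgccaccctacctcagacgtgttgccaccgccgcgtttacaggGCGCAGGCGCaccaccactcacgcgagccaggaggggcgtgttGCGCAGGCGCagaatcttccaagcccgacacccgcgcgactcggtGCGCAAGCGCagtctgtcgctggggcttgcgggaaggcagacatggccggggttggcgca
Uqcrc1: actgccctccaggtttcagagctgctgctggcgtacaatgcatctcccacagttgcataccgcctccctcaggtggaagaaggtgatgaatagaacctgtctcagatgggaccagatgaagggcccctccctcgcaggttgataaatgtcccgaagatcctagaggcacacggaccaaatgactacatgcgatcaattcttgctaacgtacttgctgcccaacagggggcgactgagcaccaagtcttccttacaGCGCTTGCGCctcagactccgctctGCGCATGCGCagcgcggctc
Cox6a1: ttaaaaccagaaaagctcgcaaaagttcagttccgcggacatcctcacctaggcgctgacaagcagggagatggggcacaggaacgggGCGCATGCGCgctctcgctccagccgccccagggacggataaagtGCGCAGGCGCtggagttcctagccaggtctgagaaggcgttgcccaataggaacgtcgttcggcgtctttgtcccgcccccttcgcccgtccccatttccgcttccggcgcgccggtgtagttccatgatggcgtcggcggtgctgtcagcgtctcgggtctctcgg
Atp5g3: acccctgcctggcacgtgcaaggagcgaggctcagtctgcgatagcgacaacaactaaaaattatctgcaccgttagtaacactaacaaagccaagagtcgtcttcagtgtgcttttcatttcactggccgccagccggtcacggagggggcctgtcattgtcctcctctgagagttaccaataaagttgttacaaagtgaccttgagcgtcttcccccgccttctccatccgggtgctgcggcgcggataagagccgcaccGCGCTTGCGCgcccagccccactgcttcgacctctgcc
Ndufs6 encodes an accessory subunit of complex I, and its window (chr13:73328433-73328732, minus strand) holds 1 NRF1 match, GCGCCTGCGC at -16, and 1 YY1 match, AAGATGGCGGC at 34. The window of Sdha, the flavoprotein of complex II (chr13:74350191-74350490, minus strand), holds 3 NRF1 matches. Uqcrc1 encodes a core protein of complex III (chr9:108936398-108936697, plus strand), and both of its NRF1 matches lie just after the start, at positions 6 and 31. Cox6a1 is the widely expressed form of a complex IV subunit (chr5:115348909-115349208, minus strand), with NRF1 matches at -162 and -117. Atp5g3 encodes the membrane ring subunit of ATP synthase (chr2:73911277-73911576, minus strand), with 1 match at 13.

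Promoters were found for 65 of the 82 members. The NRF1 motif was searched on both strands as the letters of the Ndufs6 match above with the fifth base free, and the YY1 motif as those of the YY1 match with the third base free. The NRF1 letters lay in the windows of 17 of these 65 genes (26.2%), compared with 10.7% of 10651 other tested genes with a promoter and 5.19% of all 27025 genes of the promoter table. The YY1 letters lay in 4 members, Ndufa9, Ndufs4, Ndufs6 and Ndufs7, all of complex I, or 6.15% against 2.63% and 1.17%. The GABPA letters CCGGAAGTG lay in 2 members, Ndufs3 and Uqcrh, or 3.08% against 4.62% and 2.25%. Ndufs6 alone of the matched members held both NRF1 and YY1 letters. By complex, NRF1 letters were in 7 of 32 complex I, 2 of 3 complex II, 1 of 5 complex III, 1 of 12 complex IV and 6 of 13 ATP synthase genes with a promoter. The 17 tested members with NRF1 letters had a median log2 fold change of P95H/+ over wild type of 0.03 and the 47 without had one of -0.02, which was not tested. A match describes these windows and does not show binding.

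Library totals ran from 10747941 to 23010510 counts, and the smallest was P95H/+ replicate 3. Srsf2 stood at 315 to 343 CPM (each count over its library total, put on a common scale) in all 6 libraries, which cannot show the base change. The progenitor markers were present, with Kit at 476 to 548 CPM and Cd34 at 303 to 407 CPM. Of the mature lineages, T cell markers were low. Cd3e stood at most at 0.348 CPM, Cd3g at 0 to 0.739 CPM and Trbc1 at 0.372 to 2.65 CPM. Nkg7 of the same T and NK cell list stood at 137 to 297 CPM. The 3 monocyte and macrophage markers Csf1r, Adgre1 and Ly6c2 summed to 562 to 825 CPM. Markers of B cells, neutrophils and erythroid cells were present too, with sums given beside the results. The libraries numbered 3 lay apart from the others in both genotypes, at 48.7 and 81.8 on a first principal component holding 61.6% of the variance, against -36.1 to -24.3 for the other 4. Results are therefore given with and without these libraries. In bulk RNA, fewer cells of a type and less RNA per cell cannot be told apart.

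Taken as a whole, the 82 genes made up between 0.653% of counts in P95H/+ replicate 3 and 0.867% in P95H/+ replicate 1. In wild type the summed level was 7508, 8078 and 8622 CPM in replicates 1, 2 and 3, and in P95H/+ it was 8674, 8188 and 6527 CPM. The groups overlap, and the highest and the lowest library are both P95H/+. The ratio of genotype means was 0.966 for all members, and it was 0.96 for complex I, 1.03 for complex II, 0.997 for complex III, 0.933 for complex IV and 0.963 for ATP synthase. Without replicate 3 of both genotypes the ratio was 1.08 for all members, and 1.08, 1.09, 1.11, 1.07 and 1.08 for the complexes in the same order. Both P95H/+ sums then lay above both wild-type sums for all members and for each complex but complex IV. Complex II varied least between libraries, from 516 to 630 CPM, while complex I ran from 1436 to 2291 CPM. ATP synthase took 39.0% to 42.2% of the summed level and complex I 22.0% to 26.4%.

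**Figure D1:**
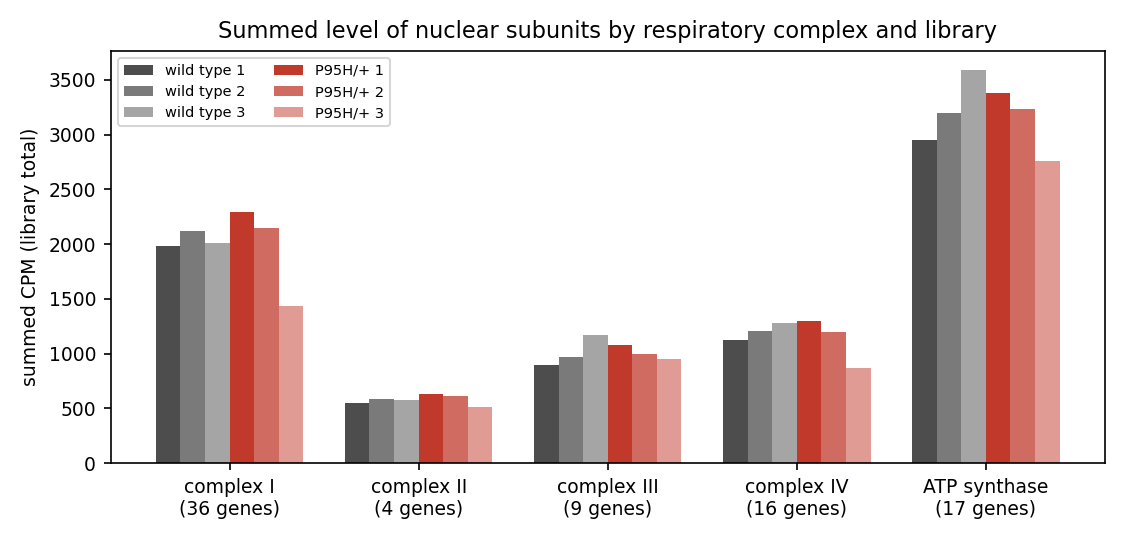
Summed CPM on the library total (y axis) of the members of each complex in the 6 libraries, 1 bar per library, wild type in grey and P95H/+ in red. P95H/+ replicate 3 is the lowest bar in every complex but complex III, where wild-type replicate 1 is lower at 893 against 948 CPM.

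Levels between genes were compared as CPM per kilobase of the gene's exons (union of GENCODE M21 exons, mean of 6 libraries). The highest members on this scale belonged to ATP synthase and complex IV. Atp5a1 and Atp5b, which encode the alpha and the catalytic beta subunit of ATP synthase, stood at 266 ± 30.8 and 214 ± 20.3 CPM per kb (SD, n = 6 libraries). Cox8a, Cox6a1, Cox6b1 and Cox4i1 of complex IV stood at 234, 178, 161 and 131 CPM per kb. In each of the 6 libraries Cox8a lay below Atp5a1 and above Atp5b on this scale. Medians by complex were 34.6 CPM per kb for complex I, 50.8 for complex II, 62.3 for complex III, 56.4 for complex IV and 51.8 for ATP synthase. Complex I was the lowest by this measure, and also with the longest coding transcript as the length (52.9 against 81.8 to 112).

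**Figure D2:**
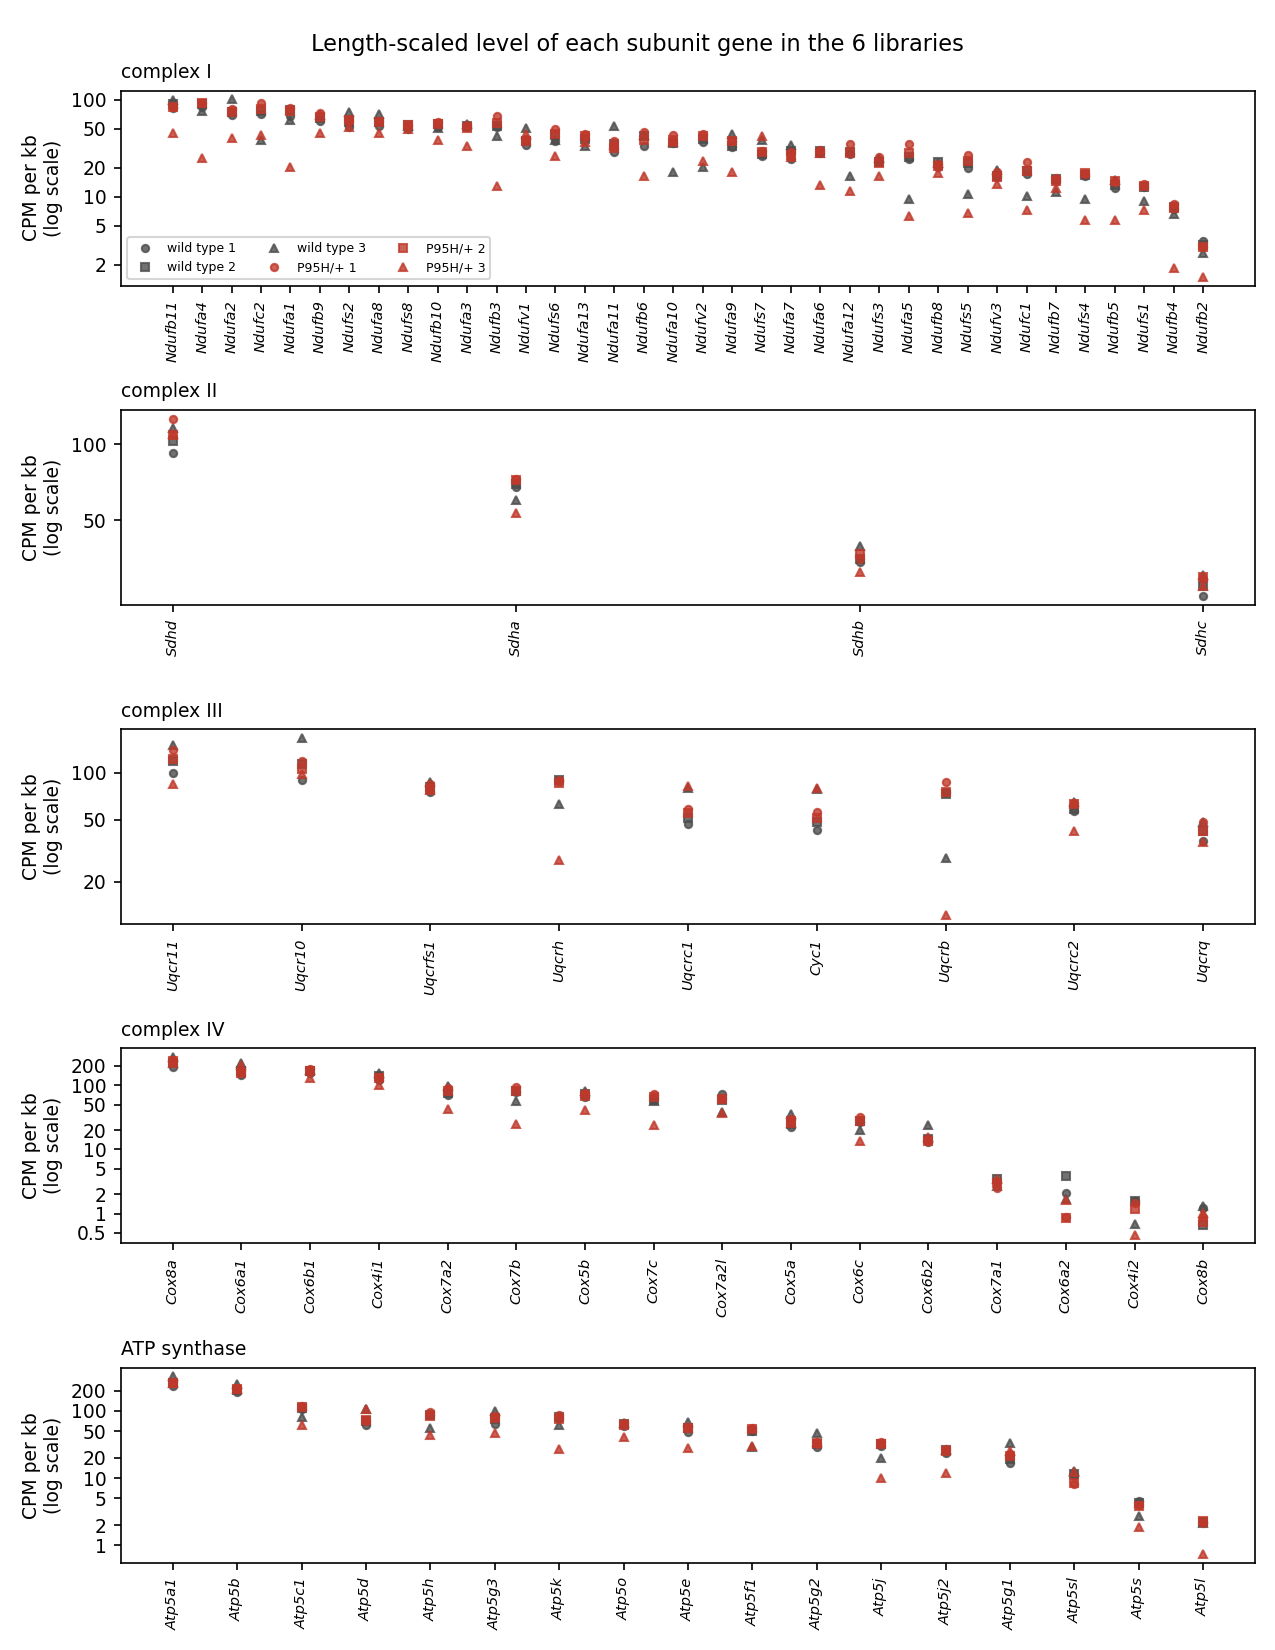
CPM per kilobase of exon union (log y axis) of each member, ordered within its complex by the mean of 6 libraries, with 1 symbol per library. Most symbols of a gene lie close together, and the triangles of replicate 3, above all of P95H/+, lie apart from the others in many genes, as in Uqcrb and Ndufa5.

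Within complex I the order ran from Ndufb11 at 81.5 and Ndufa4 at 77.6 down to Ndufb4 at 6.64 and Ndufb2 at 2.81 CPM per kb. Ndufb11 and Ndufa4 changed places between libraries, with Ndufb11 at 82.6 and Ndufa4 at 85.2 in wild-type replicate 1 and at 45.7 and 25.3 in P95H/+ replicate 3. In complex II, Sdhd, a membrane anchor, led at 109 ± 11.4 CPM per kb, ahead of Sdha at 66.1 ± 7.61, the iron-sulfur protein Sdhb at 35.4 ± 2.84 and the other anchor Sdhc at 28.4 ± 2.00 (SD, n = 6 libraries). This order held in each of the 6 libraries. In complex III the order ran from Uqcr11 at 119 ± 24.6 to Uqcrq at 42.4 ± 5.41 CPM per kb. Uqcr11 and Uqcr10 (115 ± 27.2) were not apart beyond their spread, nor were neighbours among the 6 genes that followed, from Uqcrfs1 at 80.4 ± 4.46 to Uqcrc2 at 58.2 ± 8.52. Uqcrq had the lowest mean, but Uqcrb (58.6 ± 30.5) lay below it in both libraries numbered 3, at 28.4 against 48.4 in wild type and 12.2 against 35.9 in P95H/+. At the low end of ATP synthase, Atp5l stood at 1.98, Atp5s at 3.55 and Atp5sl at 10.7 CPM per kb.

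The length used moves some of these ranks. With the longest coding transcript, an alternative chosen after seeing the data, Ndufa4 led complex I and Atp5b (474 CPM per kb) led ATP synthase ahead of Atp5a1 (312). Cox4i1 (265) and Cox8a (263) were nearly level, and Atp5s (4.53) was below Atp5l (23.5). In complex III, Uqcrh (168) and Uqcrc1 (156) passed Uqcr10 (155). The lowest members of complexes I, II, III and IV were the same under both lengths.

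Several complex IV subunits exist as a widely expressed form and a form known from muscle, lung or testis, and in these progenitors the first kind was the more abundant in each pair. Cox4i1 stood at 131 and Cox4i2, the lung form, at 1.16 CPM per kb. Cox6a1 stood at 178 and Cox6a2, the heart and muscle form, at 1.83 CPM per kb, and Cox7a2 at 76.4 with its muscle counterpart Cox7a1 at 3.03 CPM per kb. Cox8a stood at 234 and Cox8b, another muscle form, at 0.975 CPM per kb. Cox8b, with 4 to 10 counts per library, was the 1 member too low to be tested. Cox6b2, known from testis, was the exception in size, at 15.8 CPM per kb beside 161 for Cox6b1. It stood at 14.5, 16.4 and 26.5 CPM in wild type and 15.2, 15.0 and 17.4 CPM in P95H/+, so every library held it well above the other minor forms. Ndufa4l2, the hypoxia-linked relative of Ndufa4 outside the member rule, had 2 to 11 counts per library.

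The 3 genes of the ATP synthase c ring, which share a mature protein and differ in their import sequences, were all expressed. Atp5g3 led at 74.8, ahead of Atp5g2 at 34.6 and Atp5g1 at 23.1 CPM per kb. This order held with the transcript length, at 226, 77 and 24 CPM per kb. Reads of such close relatives could be split between them by the counting.

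Of the members on the X chromosome, Ndufb11 (mm10 chromosome X, 20615326 to 20617619, minus strand, overlapped on the other strand by Rbm10) stood at 75, 83.1 and 90.3 CPM in wild type and 77.4, 76.5 and 41.5 CPM in P95H/+. Ndufa1 (37187588 to 37191163) stood at 28.4, 32.6 and 25.7 CPM against 34.5, 32.2 and 8.47 CPM. Cox7b (106015700 to 106022450) stood at 94.0, 99.5 and 68.8 CPM against 112, 100 and 30.5 CPM. In all 3 genes the male P95H/+ replicate 3 was the lowest library, while the male wild-type replicate 2 lay above the female replicate 1.

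The comparison of genotypes asks which transcripts differ in progenitors with 1 mutant Srsf2 allele. No difference in a member passed the test with all 6 libraries. By edgeR's quasi-likelihood F test, 0 of 81 tested members had an adjusted p under 0.05, and 0 of 17144 genes (0%) did. At an unadjusted p under 0.05 there was 1 member, Cox6a2, and 2.11% of all genes. DESeq2 called 0 members and 0.0269% of its genes, limma voom 0 members and 0% of genes, and a model with the replicate number as a block 0 members and 0.00583% of genes. Members went both ways, 37 higher (45.7%, against 53.1% of all genes) and 44 lower in P95H/+, with a median log2 fold change of -0.02 beside 0.02 for all genes tested. The typical SE of a member was 0.28 on the log2 scale, so changes of a modest size were not detectable with these libraries.

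Cox6a2 had the lowest fold change of the members. It stood at 1.43, 2.61 and 1.13 CPM in wild type, and at 0.600, 0.575 and 1.12 CPM in P95H/+. The groups did not overlap, though wild-type replicate 3 and P95H/+ replicate 3 were nearly equal. These values rest on 12 to 55 counts per library. The log2 fold change was -1.17 (SE 0.46, adjusted p 1 by edgeR). It was -0.71 without wild-type replicate 2, the library with 55 counts, and ran from -1.51 to -0.71 over the left-out libraries. The gene lies on mm10 chromosome 7 at 128205435 to 128206387 on the minus strand, within a span where Itgad is annotated on the other strand. Itgad itself had 4 to 11 counts per library.

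Ndufa10, an accessory subunit of complex I (mm10 chromosome 1, 92439010 to 92473860, minus strand), had the highest fold change. It stood at 120, 119 and 59.4 CPM in wild type and at 145, 129 and 123 CPM in P95H/+. The groups did not overlap, and wild-type replicate 3 lay far below the other 5 libraries. The log2 fold change was 0.48 (SE 0.30, adjusted p 1 by edgeR), and without wild-type replicate 3 it was 0.21. Ndufa10 and Cox6a2 were the only members whose groups did not overlap with 6 libraries, where 1.91% of all genes were higher and 5.93% lower in that way, 7.84% together.

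Among core subunits of complex I, Ndufv1, which binds NADH, stood at 90.8, 100 and 135 CPM in wild type and 103, 98.6 and 116 CPM in P95H/+, with a log2 fold change of 0.04 (SE 0.22). Ndufs1, an iron-sulfur subunit overlapped on the other strand by the highly expressed Eef1b2, stood at 101, 102 and 73.9 CPM and at 109, 103 and 58.6 CPM. Its log2 fold change was 0.03 (SE 0.28). Both genes overlapped between genotypes, and both signs turned with other scalings or libraries. Ndufa13, an accessory subunit also known as GRIM-19, stood at 48.8, 48.9 and 41.7 CPM and at 56.0, 53.2 and 45.4 CPM. Its log2 fold change was 0.22 (SE 0.19). P95H/+ lay above wild type in each same-numbered pair, as it did for 2804 of all 17144 genes tested.

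Complex II was the steadiest group. Sdha stood at 280, 288 and 248 CPM in wild type and 300, 299 and 221 CPM in P95H/+. Sdhd (mm10 chromosome 9, 50596357 to 50603812, minus strand) stood at 114, 127 and 143 CPM and at 155, 134 and 136 CPM. In both genes the groups overlapped. The log2 fold changes were 0.07 (SE 0.20) for Sdha, 0.22 (SE 0.19) for Sdhd, 0.14 (SE 0.18) for Sdhc and 0.00 (SE 0.18) for Sdhb. Sdhb was at 81.4 ± 6.64 CPM in wild type and 77.3 ± 6.68 CPM in P95H/+, and Sdhc at 90.3 ± 8.80 and 94.3 ± 4.12 CPM (SD, n = 3 each).

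In complex III, Uqcrc1 stood at 194, 213 and 329 CPM in wild type and from 227 to 340 CPM in P95H/+ (mean 270 ± 61.5, SD, n = 3). Cyc1, the cytochrome c1 gene, stood at 92.5, 104 and 170 CPM and at 121, 111 and 172 CPM. Both replicate 3 libraries were the highest of their genotype in these genes, and the difference between replicates was larger than that between genotypes. The log2 fold changes were 0.22 (SE 0.28) and 0.23 (SE 0.30). Uqcrfs1, the Rieske iron-sulfur protein, was even across libraries at 102 to 118 CPM, and its log2 fold change was 0.07 (SE 0.18).

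In complex IV, Cox4i1 stood at 216 ± 29.1 CPM in wild type and 190 ± 29.1 CPM in P95H/+ (SD, n = 3 each), with -0.11 (SE 0.20) as its log2 fold change. Cox5a stood at 47.3, 53.0 and 74.1 CPM and at 62.4, 58.1 and 53.9 CPM, with 0.08 (SE 0.22). Cox5b stood at 103, 116 and 129 CPM and at 120, 108 and 64.4 CPM, with -0.18 (SE 0.26). These 3 structural subunits overlapped between genotypes. In ATP synthase, Atp5a1 was at 731, 816 and 1018 CPM in wild type and 833, 808 and 802 CPM in P95H/+, and Atp5b at 802, 868 and 1059 CPM and 938, 891 and 894 CPM. Their log2 fold changes were 0.01 (SE 0.19) and 0.07 (SE 0.19). The wild-type libraries spread more widely than those of P95H/+ in both genes, and the groups overlapped.

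The smallest p of ATP synthase belonged to Atp5sl and to Atp5e, the epsilon subunit. Atp5sl (mm10 chromosome 7, 25619414 to 25625551, plus strand) stood at 33.8, 35.1 and 38.4 CPM in wild type and at 24.4, 25.7 and 37.2 CPM in P95H/+. Replicates 1 and 2 of P95H/+ lay below every wild-type library, and replicate 3 did not. Atp5e stood at 86.4, 98.0 and 119 CPM and at 97.2, 96.2 and 49.0 CPM. The log2 fold changes were -0.22 (SE 0.24) and -0.26 (SE 0.29).

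**Figure D3:**
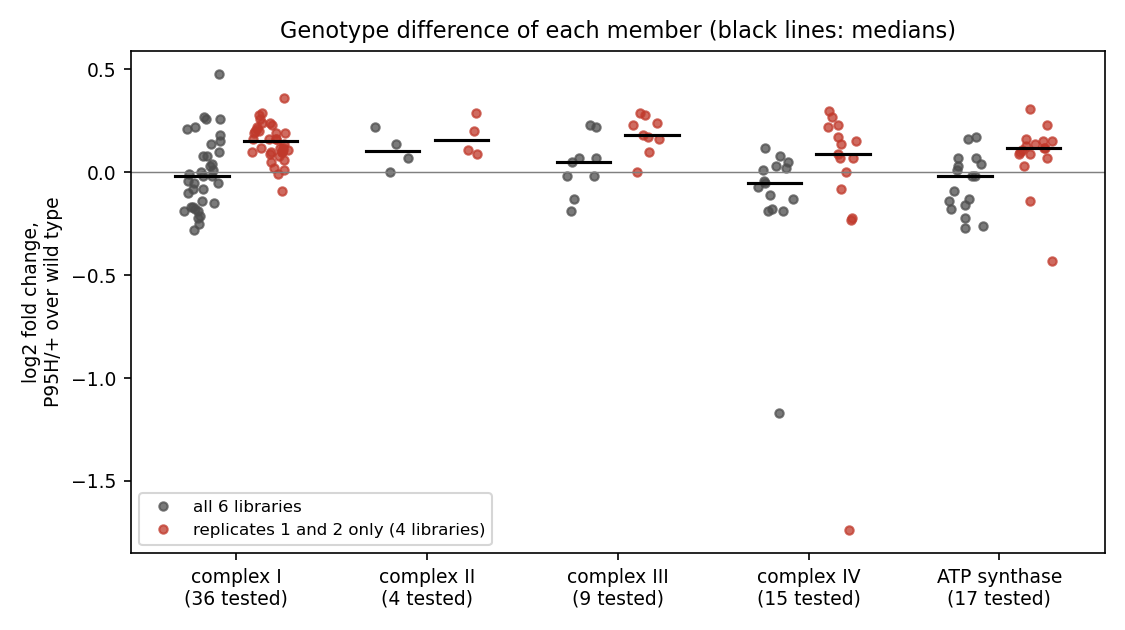
Log2 fold change of P95H/+ over wild type (y axis) of each tested member by complex, 1 point per gene, from all 6 libraries (grey) and from replicates 1 and 2 alone (red), with black lines at the medians. The grey medians lie between -0.05 and 0.11 and the red ones between 0.09 and 0.18, and Cox6a2 is the lowest point in both. Both sets of values share 4 libraries.

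Without replicate 3 of both genotypes, the values were tighter and most members were slightly higher in P95H/+. In this comparison of 2 against 2 libraries, 73 of 81 members had a log2 fold change above 0, against 49.6% of 17371 genes, and the median was 0.14 beside 0.00 for all genes. The typical SE of a member was 0.10. No member passed edgeR's test (the smallest adjusted p was 0.0755), while 0.829% of all genes did. At an unadjusted p under 0.05, 18 members were higher (6.14% of all genes) and 2 lower (9.44%). Every P95H/+ library lay above every wild-type library for 45 members (19.9% of all genes) and below for 6 (28.2%).

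This lean covered every complex. It held for 34 of 36 complex I genes, 4 of 4 in complex II, 9 of 9 in complex III, 11 of 15 in complex IV and 15 of 17 in ATP synthase, with medians of 0.15, 0.15, 0.18, 0.09 and 0.12. Sdhd had a log2 fold change of 0.29 (SE 0.11, adjusted p 0.233 by edgeR), Cox5a of 0.30 (SE 0.10, 0.215) and Cyc1 of 0.28 (SE 0.10, 0.223). The members lower at an unadjusted p under 0.05 were Cox6a2 at -1.74 (SE 0.39, adjusted p 0.0755) and Atp5sl at -0.43 (SE 0.10, adjusted p 0.0916), a muscle form and an assembly factor. The 4 complex IV genes below 0 were the minor forms Cox6a2, Cox4i2 (-0.23, SE 0.32) and Cox7a1 (-0.22, SE 0.28), together with Cox7a2l (-0.08). In these libraries Cox4i2 stood at 0.929 to 1.26 CPM and Cox7a1 at 1.34 to 1.85 CPM.

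The lean did not extend evenly over the 4 libraries. Relative to their mean, the median member lay at -0.14 in wild-type replicate 1 and -0.01 in wild-type replicate 2. It lay at 0.13 in P95H/+ replicate 1 and 0.00 in P95H/+ replicate 2 (log2 CPM with TMM scaling). The replicate 2 libraries of both genotypes were thus nearly level, and the replicate 1 libraries lay on either side of them. Wild-type replicate 1 is the only library of 54 weeks, and age cannot be told apart from that library. It also held the most neutrophil marker RNA of these 4, with Ly6g, S100a8, S100a9 and Ltf summing to 553 CPM against 198 to 335 CPM, and the part of this in the result was not tested. Sums of 4 other lists separated the genotypes here. Such separation was common in these libraries, as 19.9% of all genes were higher and 28.2% lower in P95H/+ without overlap. In replicates 1 and 2, B cell markers summed to 24.0 and 29.0 CPM in wild type and 14.1 and 11.9 CPM in P95H/+, and erythroid markers to 175 and 241 CPM against 136 and 159 CPM. Of the 4 erythroid markers, 1 had a log2 fold change above 0. Klf1 stood at 25.4 and 35 CPM in wild type and 43 and 27.8 CPM in P95H/+. The 5 progenitor markers summed to 5285 and 5763 CPM in wild type and 6202 and 6148 CPM in P95H/+. Most of this was Mpo, at 4013 and 4568 against 5216 and 4924 CPM. Only 2 of the 5 had a log2 fold change above 0 without replicate 3. Flt3 went the other way, at 137 and 165 CPM in wild type against 82.4 and 109 CPM in P95H/+. The T and NK cell list, nearly all Nkg7, summed to 141 and 167 CPM in wild type and to at least 177 CPM in P95H/+. The part of these markers in the lean was not tested either.

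Between same-numbered libraries the genotype difference took 3 different values. The sample titles number the libraries but name no pairs, so these values are a description. They also do not compare like with like. Replicate 1 sets wild type of 54 weeks against P95H/+ of 32 weeks, both female. Replicate 2 sets a male wild type against a female P95H/+, while both libraries of replicate 3 are from males of 32 weeks. In replicate 1, 74 of 81 members were higher in P95H/+, with a median log2 difference of 0.27. In replicate 2 it was 48 of 81, with a median of 0.01, and in replicate 3 it was 17 of 81, with a median of -0.37. Over all genes the medians were 0.00, 0.00 and 0.05. So P95H/+ was above, level with and below wild type in turn, and no common direction held. Complex II kept closest to 0 in replicate 3 (-0.01), while complexes I and III were at -0.45 and -0.48.

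**Figure D4:**
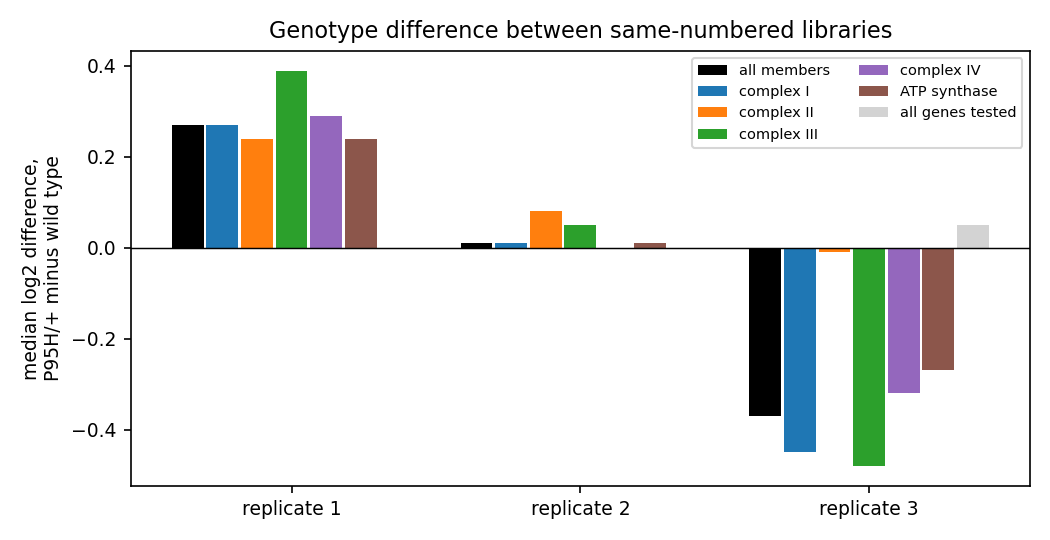
Median log2 difference (y axis, TMM-scaled log2 CPM) of P95H/+ minus wild type between the libraries with the same replicate number, for all members, each complex and all genes tested. The bars of the members are above 0 in replicate 1, near 0 in replicate 2 and below 0 in replicate 3, apart from complex II at -0.01.

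Of the 81 members, 11 were higher in P95H/+ in all 3 pairs and 3 were lower, beside 2804 and 2312 of 17144 genes. The 11 were Ndufa10, Ndufa13, Ndufc2, Ndufs7, Ndufs8, Ndufv2, Sdhd, Cyc1, Uqcrc1, Atp5d and Atp5f1, and the 3 were Ndufb2, Cox4i2 and Atp5s. The differences of Ndufs8, an iron-sulfur subunit, were as small as 0.01 in replicates 2 and 3. Those of Uqcrc1 were 0.39, 0.09 and 0.19, and those of Ndufv2, another iron-sulfur subunit, were 0.37, 0.10 and 0.33.

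The libraries numbered 3 lay far from their counterparts, and not in one direction. The median absolute log2 difference of a member was 0.37 in wild type and 0.64 in P95H/+, against 0.14 and 0.13 between replicates 1 and 2 of a genotype. Over all genes tested these values were similar, at 0.45 and 0.60 against 0.15 and 0.15. Against the mean of replicates 1 and 2 of the same genotype, members of P95H/+ replicate 3 ran from -2.65 to 0.88 on the log2 scale (median -0.57, 65 of 81 lower). In wild-type replicate 3 they ran from -1.45 to 0.84 (median 0.04, 36 of 81 lower). Of all 17144 genes, 8844 were lower in the P95H/+ library and 9065 in the wild-type one, with medians of -0.04 and -0.05. Genes of one complex parted from each other. Uqcrb, a small subunit of complex III chosen here as the extreme after its values were seen, stood at 65.6, 64.0 and 24.9 CPM in wild type and at 76.4, 66.3 and 10.7 CPM in P95H/+. Both replicate 3 libraries were low, at shifts of -1.41 and -2.65. In the same complex Uqcrc1 and Cyc1 were shifted up by 0.66 and 0.76 in wild type and 0.61 and 0.64 in P95H/+. Ndufa5, an accessory subunit of complex I, stood at 25.6, 26.7 and 9.74 CPM and at 35.9, 29.5 and 6.51 CPM, and Ndufb3 at 39.7, 41.2 and 32.7 CPM and at 52.2, 43.6 and 9.86 CPM. Ndufb3 was thus low in P95H/+ replicate 3 and only slightly lower in its wild-type counterpart.

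Transcript composition went along with these shifts. Members have short transcripts, with a median of 870 bases and a GC content of 51.6%, against 2640 bases and 49.5% over tested genes with a value, and 47 of the 82 are at most 1000 bases long. Across the 81 members the shift of replicate 3 correlated with GC content at Pearson r = 0.45 in wild type and 0.57 in P95H/+ (Spearman 0.46 and 0.56). With log2 transcript length the values were 0.03 and 0.29 (Spearman -0.01 and 0.26). The points share 1 library and its comparison libraries, and genes are not independent replicates. Members of up to 1 kb with a GC content under 50% (n = 14) had median shifts of -0.25 in wild type and -1.47 in P95H/+. Those over 1 kb with a GC content of 50% or more (n = 17) had 0.20 and -0.09. The same classes over all tested genes were at -0.26 and -0.70, and at 0.31 and 0.56.

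**Figure D5:**
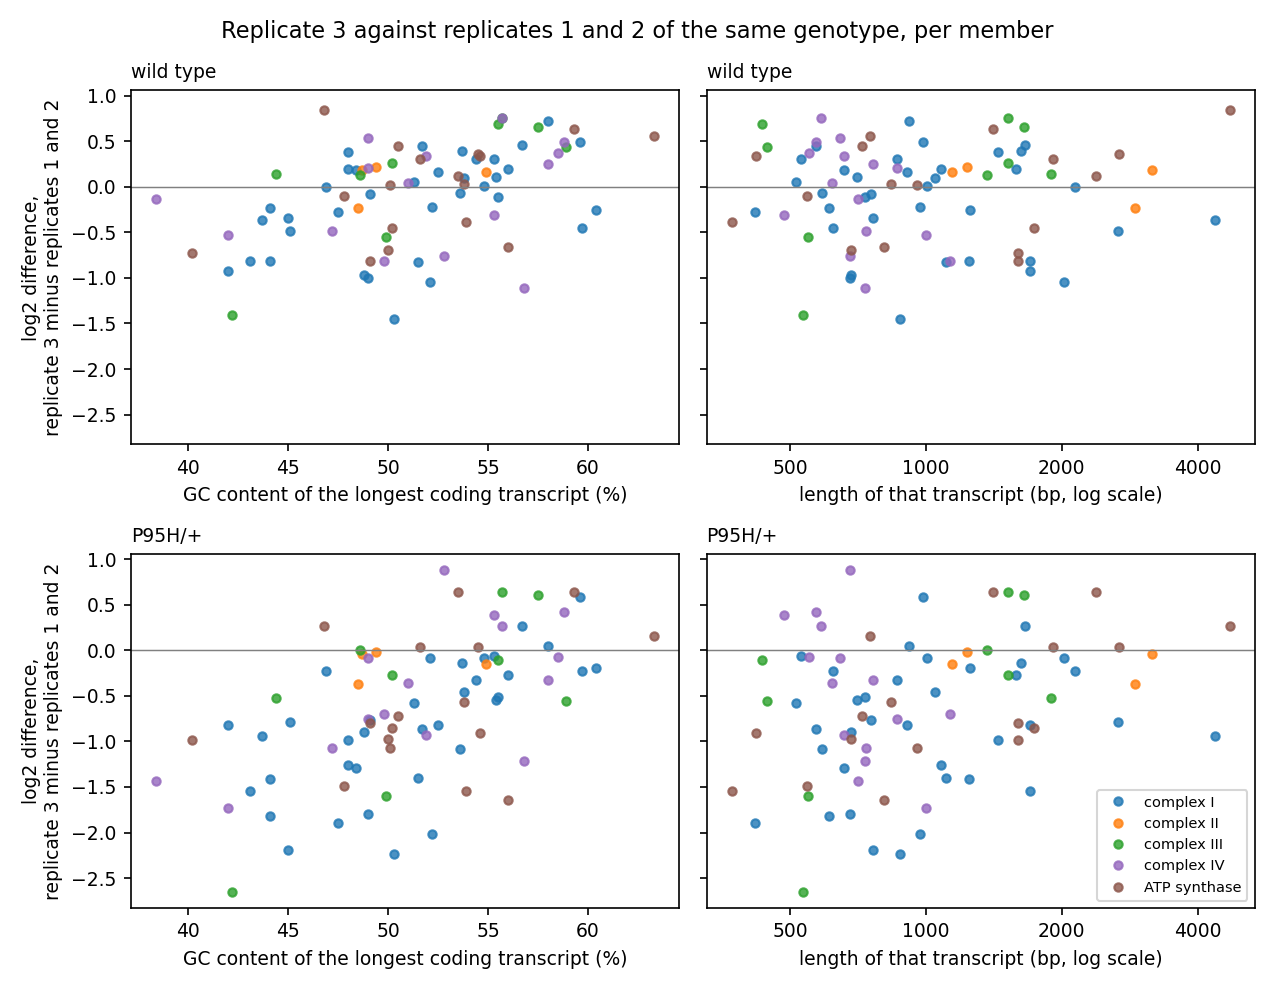
Log2 difference (y axis) of replicate 3 from the mean of replicates 1 and 2 of the same genotype for each of the 81 tested members, against GC content (left) and length on a log axis (right) of the longest coding transcript, wild type above and P95H/+ below. Points rise with GC content in both genotypes and lie mostly below 0 in P95H/+, down to -2.65 for Uqcrb.

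Correcting each library for GC content moved the median member of P95H/+ replicate 3 from -0.57 further down to -0.74. Correcting for GC content and length put it at -0.41. The corresponding medians of wild-type replicate 3 were 0.03 and 0.13, against 0.04 uncorrected. P95H/+ replicate 3 also held the highest sums of 4 erythroid and 4 neutrophil markers, 486 and 705 CPM against 136 to 272 and 198 to 553 CPM in the other libraries, all detected in each library, with Ltf at 399 CPM and Klf1 at 120 CPM. Its 3 B cell markers summed to 47.2 CPM against 11.9 to 29.0 CPM. The sums of the progenitor, T and NK cell, monocyte and macrophage, and stromal and endothelial lists lay within the range of the other libraries. The part of these markers in its low subunit levels was not tested.

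Other genes of the pathway, listed by role, gave no call with 6 libraries, where 0% of all genes were called and 53.1% were higher in P95H/+. Of 43 tested assembly factors, which insert cofactors or join subunits, 24 were higher in P95H/+ and 19 lower, with a median log2 fold change of 0.01. Those with the smallest p were Cox18 at 0.33 (SE 0.23) and Cox19 at 0.27 (SE 0.20), both needed to build complex IV. Regulators of mitochondrial genes had 9 of 14 higher and a median of 0.07, among them the coactivators Ppargc1a at -0.40 (SE 0.35), from 0.461 to 0.900 CPM, and Pprc1 at 0.38 (SE 0.38). Genes of the TCA cycle, which supplies NADH and succinate, had 12 of 14 higher and a median of 0.18, with Idh3b at 0.24 (SE 0.18) and Dlst at 0.21 (SE 0.18). Glycolysis genes had 11 of 14 higher and a median of 0.07, with the hexokinase Hk1 at 0.41 (SE 0.22) and Aldoa at 0.32 (SE 0.26).

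Without replicate 3 the medians of these lists were 0.14 for assembly factors (33 of 43 higher), 0.01 for regulators (8 of 14), 0.13 for the TCA cycle (14 of 14) and 0.15 for glycolysis (11 of 14). Of all genes, 49.6% were higher. In each list 0 members were called, beside 0.829% of all genes, a share too small to expect a call in lists of this size. Assembly factors, TCA cycle and glycolysis genes thus had medians close to that of the respiratory subunits, 0.14. In P95H/+ replicate 3 assembly factors had a median shift of -0.37, regulators of -0.10, TCA cycle genes of 0.00 and glycolysis genes of 0.38, beside -0.57 for the subunits. In wild-type replicate 3 the same lists were at -0.10, -0.19, -0.07 and 0.42, beside 0.04 for the subunits, so that glycolysis genes lay higher in both.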

How the data were processed

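Raw counts per gene for 26027 genes in 6 libraries (Srsf2 P95H/+ and wild type, 3 each) are the deposited values used here. The authors' deposited CPM equalled each count over its library total within 5e-04 and were used only for that check. RNA was depleted of ribosomal RNA before a stranded library kit, per the labels' protocols. The submitters' processing notes list mm10, Subread 1.5.1 with featureCounts, STAR 2.5.3a, Trim Galore, cutadapt, Picard 1.96, limma and edgeR. Whether the counting used strand is not given in the sources used here, so overlapping genes may share reads.

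The genotype difference was tested in R 4.3.3 by edgeR 4.0.16 (TMM, filterByExpr, robust quasi-likelihood F test, two-sided), adjusted over all genes tested by Benjamini-Hochberg at 0.05. An SE follows from the F statistic. Positions, exons and transcripts came from GENCODE M21, which holds all 82 members, and promoters from RefSeq on GRCm38.p6. The test script was checked on simulated counts. Alternatives were DESeq2 1.42.0, limma 3.58.1 voom, other scaling and filtering, sex or replicate number in the model, GC and length corrections (natural splines, 4 degrees of freedom) and libraries left out. Same-numbered libraries deviated together from their group means across genes (r = 0.372, 0.348 and 0.613), which met the rule for pairing by number. Differently numbered libraries 1 and 2 gave 0.386 and 0.463, above the 0.372 and 0.348 of the same-numbered ones. The rule therefore cannot show that libraries 1 and 2 pair by number.

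Fold changes are given for 12 core subunits and the 2 members of each complex with the smallest p. Members and lists were chosen with earlier results of these data known. With 3 libraries against 3, the smallest two-sided p of an exact permutation test is 0.1.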

Additional observations from a re-analysis of the deposited data

How the results depend on the processing

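No member was called under any of the 15 other settings tried. With the replicate block, the pairing by number, 0 members and 1 gene in all were called by edgeR, and it changed no call of a member. Genes called over all genes numbered 7 with DESeq2, 144 without replicate 3 of both genotypes, and 0 to 1 when each library was left out in turn. Members higher in P95H/+, 37 with all libraries, numbered 21 when scaled by library totals, 26 with sex in the model and 73 without replicate 3 of both genotypes. They numbered 19 to 61 when each library was left out, lowest without P95H/+ replicate 1 and highest without P95H/+ replicate 3. The cause was not tested. The median log2 fold change ran from -0.18 to 0.11 over these left-out libraries and was -0.11 with sex in the model. It was 0.01 with the GC and length correction, which was chosen after seeing the data. Scaling by library totals moved the median of all genes from 0.02 to -0.05 and turned Atp5a1 to -0.07, Ndufs1 to -0.03, Ndufv1 to -0.04 and Uqcrfs1 to -0.01. Without a filter on low counts Atp5a1 was -0.01, and with sex in the model Ndufs1 was -0.17. Without replicate 3 of both genotypes Atp5e (0.10), Cox4i1 (0.07) and Cox5b (0.09) turned positive. Leaving out each library gave -0.10 to 0.14 for Atp5a1, -0.01 to 0.18 for Atp5b, -0.05 to 0.27 for Cox5a, -0.38 to 0.03 for Cox5b, -0.01 to 0.53 for Cyc1, -0.14 to 0.25 for Ndufs1, -0.08 to 0.21 for Ndufv1, -0.01 to 0.19 for Sdha and -0.01 to 0.47 for Uqcrc1. Values that round to 0.00 have no direction. The ratios of summed levels by complex ran from 0.861 to 1.09 over left-out libraries. Without replicate 3 of both genotypes they ran from 1.07 for complex IV to 1.11 for complex III. The SE of most members, near 0.28, limits what 3 libraries a genotype can show.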
